A study of Mus musculus with 26 samples.

Results

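The genes described here are 10 transcripts that the RAS to ERK pathway switches on and that mostly act back on it, named the mitogen-activated protein kinase (MAPK) feedback genes. They are the phosphatases Dusp4 and Dusp6, the sprouty genes Spry1, Spry2 and Spry4, the sprouty-related genes Spred1 and Spred2, and the transcription factors Etv1, Etv4 and Etv5. They were chosen by symbol from the 24454 genes of the deposited count table, each found through its Entrez identifier. All 10 passed the filter on low counts and were among the 15617 genes tested.

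The libraries are bulk RNA sequencing of GFP-positive cells that were sorted by flow cytometry from early mouse gliomas, where GFP came from a Cre reporter at the Rosa locus. Every tumour, controls included, was driven by PDGF and lacked Trp53, so the controls are mutant for p53 and wild type for Notch1, Notch2 and Rbpj. There were 6 control libraries, 6 labelled Notch1-/-, 5 labelled Notch2-/-, 5 labelled Notch1-/-Notch2-/- and 4 labelled Rbpj-/-, or 26 in all. Rbpj encodes the DNA-binding factor through which Notch receptors act on transcription. The age of the mice, the way PDGF and Cre were delivered and the cell type that received them were not stated in the labels. Nothing says whether replicates came from separate mice, so p-values measure the spread between these libraries only.

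Ligand binding to a receptor tyrosine kinase such as the PDGF receptor alpha activates RAS, then RAF, MEK and ERK. Active ERK removes the repressor capicua from its target genes and activates ETS and AP-1 factors, and the feedback genes are transcribed as a result. Their mRNA levels are therefore widely used as a readout of recent ERK activity. Oligodendrocyte precursor cells, which depend on PDGF and express its receptor alpha, are a well known cell of origin for gliomas driven by PDGF.

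Totals ran from 30868828 to 48103535 counts per library, and the lowest count of any feedback gene in any library was 64, for Dusp4. Levels below are CPM, the count scaled by the library total after TMM normalization. The labels of the targeted genes were only partly reflected in RNA, and the labels do not say which exons were deleted. Rbpj was lower in Rbpj-/- than in control libraries (log2 fold change -0.70 ± 0.20 SE, adjusted p = 0.0222, Benjamini-Hochberg, from the quasi-likelihood test of edgeR) and Notch2 was lower in Notch2-/- (-0.79 ± 0.15, adjusted p = 0.0200), each without overlap of ranges. Notch2 in Notch1-/-Notch2-/- (-0.18 ± 0.15, adjusted p = 0.377), Notch1 in Notch1-/- (0.40 ± 0.24, adjusted p = 0.204) and in Notch1-/-Notch2-/- (0.36 ± 0.25, adjusted p = 0.270) did not pass the same edgeR test. Loss of Notch1 was therefore not visible in gene counts, and genotypes below, with the directions drawn from them, are those the libraries are labelled with. The oligodendrocyte precursor markers that define these cells were high in each genotype, with Olig2 from 373 to 730.0 CPM and Pdgfra from 1683 to 7177 CPM over the 26 libraries. Markers of other cells were present and moved with genotype. The summed level of 14 microglia and macrophage genes was 353.5 to 1501 CPM in control libraries, 298.7 to 676 in Notch2-/-, 53.2 to 258 in Notch1-/-, 126 to 225 in Rbpj-/- and 48.0 to 154 in Notch1-/-Notch2-/-. The summed level of 9 mature oligodendrocyte genes was 7997 to 21502 CPM in control libraries, 1700.4 to 16880 in Notch2-/-, 1651 to 16050.2 in Notch1-/-, 2417 to 7643 in Rbpj-/- and 1427 to 4463 in Notch1-/-Notch2-/-. For 9 astrocyte genes the sum was 983 to 2003 CPM in control libraries and 1324 to 2273 in Notch2-/-. It was 608 to 1155 in Notch1-/-, 599 to 1141 in Rbpj-/- and 394 to 928 in Notch1-/-Notch2-/-.

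Promoter sequence is shown for 3 of the feedback genes, since the study removed the RBPJ factor and its receptors. Dusp6 is shown because it was the feedback gene that changed, and Spred2 and Etv5 because their windows alone held a short RBPJ core motif. RefSeq windows of assembly GRCm38.p6 (mm10) were available for 7 of the 10 genes, as 9 windows, each running from 250 bases before to 50 bases after a transcript start, and only the bases before the start are printed, in the direction of the gene. Capitals mark the hexamer TGGGAA.
Dusp6, chr10:99262981-99263230, plus strand: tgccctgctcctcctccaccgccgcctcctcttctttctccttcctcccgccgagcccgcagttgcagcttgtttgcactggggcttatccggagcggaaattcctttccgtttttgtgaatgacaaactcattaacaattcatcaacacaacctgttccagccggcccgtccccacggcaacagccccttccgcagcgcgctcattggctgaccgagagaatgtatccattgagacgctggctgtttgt
Spred2, chr11:19924192-19924441, plus strand: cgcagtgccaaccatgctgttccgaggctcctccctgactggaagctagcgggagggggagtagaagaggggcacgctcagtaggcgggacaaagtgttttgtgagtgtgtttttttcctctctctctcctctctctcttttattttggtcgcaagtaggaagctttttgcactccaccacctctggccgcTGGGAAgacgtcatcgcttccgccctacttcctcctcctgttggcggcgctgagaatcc
Etv5, the downstream of its 2 windows, chr16:22438369-22438618, minus strand: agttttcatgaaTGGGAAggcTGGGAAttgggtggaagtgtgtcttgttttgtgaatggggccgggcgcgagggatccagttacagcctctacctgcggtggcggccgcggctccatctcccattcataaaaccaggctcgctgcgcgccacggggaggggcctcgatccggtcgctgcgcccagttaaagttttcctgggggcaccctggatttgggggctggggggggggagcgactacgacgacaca
The hexamer, searched on both strands, began 59 bases before the start in Spred2, and 238 and 229 bases before it in Etv5. It was present in 24.4% of the 21891 windows of genes in the table. None of the 9 windows used, which do not cover Dusp4, Spry4 and Etv4, held the longer RBPJ heptamer GTGGGAA (6.20% of windows), which contains the hexamer. Nor did they hold TGAATGAA (1.18%) or TGAATGGA (1.07%), the only capicua octamers searched. Other forms of the capicua octamer were not searched, and the windows may hold them. The ETS octamer CCGGAAGT (5.17%), the AP-1 heptamer TGACTCA (4.88%) and the CRE octamer TGACGTCA (2.31%) were absent too. All of these searches match letters in short windows and say nothing about where the factors bind.

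The feedback genes were well expressed apart from Dusp4. Per kilobase of gene length, the mean level over 26 libraries was 66.6 CPM per kb for Etv4, 65.7 for Spry2, 54.9 for Dusp6, 51.9 for Spred1, 50.6 for Spry4 and 49.9 for Spry1. On the same scale it was 37.9 for Etv5, 33.3 for Etv1, 16.2 for Spred2 and 2.65 for Dusp4. By this measure 8 of the 10 stood above at least 83.55% of tested genes, Spred2 stood above 67.2% and Dusp4 above 29.6%. Between the lowest and the highest library the level in CPM differed 2.53-fold for Etv5, 2.74-fold for Etv1 and 2.78-fold for Spred1, and up to 6.12-fold for Spry4 and 6.77-fold for Dusp4. When the genotypes were ordered by mean level for each gene, control was lowest for 4 genes and Notch1-/-Notch2-/- for 6, while Notch2-/- was highest for 5, Notch1-/- for 3 and Rbpj-/- for 2. All 40 neighbouring genotypes in these orders had overlapping ranges. Sorting by mean puts the most similar genotypes side by side, so this says nothing about genotypes further apart. For Dusp6, control (134 to 226 CPM) and Notch1-/-Notch2-/- (46.4 to 112 CPM) did not overlap, with Rbpj-/- between them in the order.

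**Figure D1:**
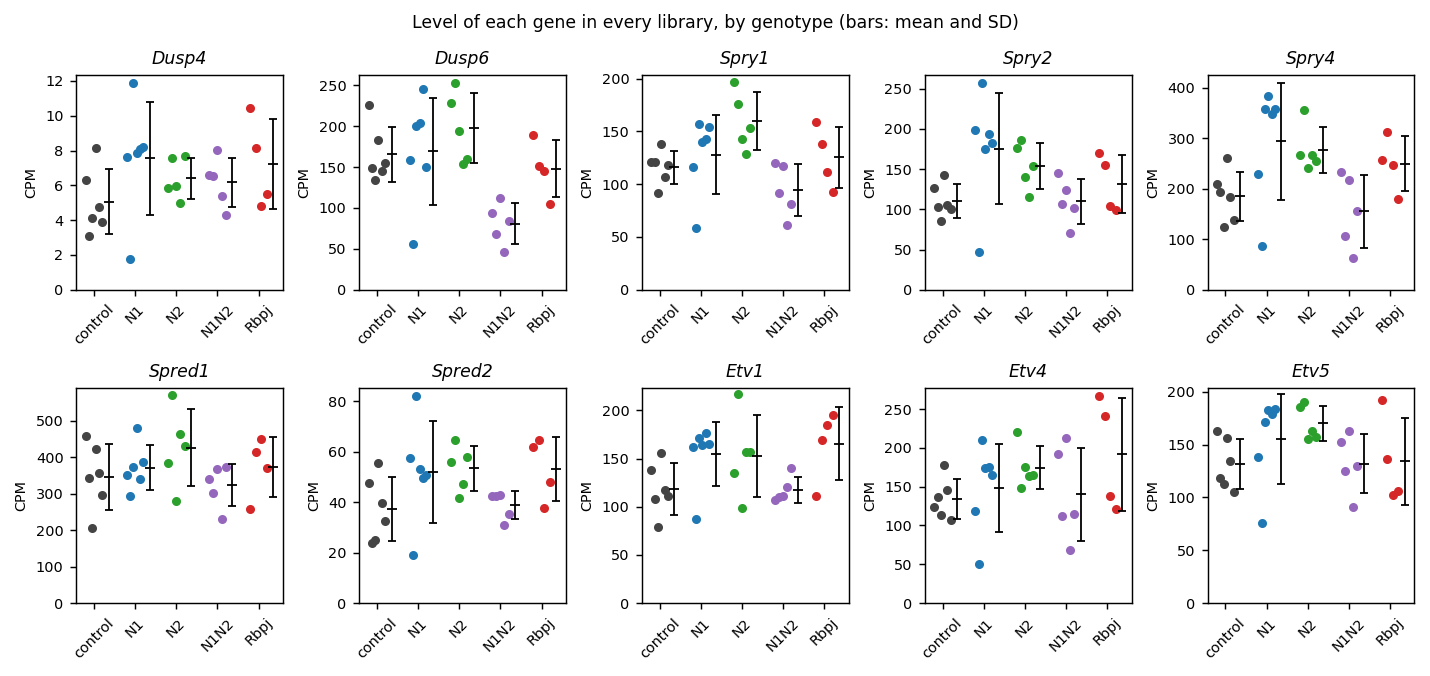
Level of each feedback gene in every library, in CPM, by genotype (N1, Notch1-/-; N2, Notch2-/-; N1N2, Notch1-/-Notch2-/-; Rbpj, Rbpj-/-); points are libraries, and the bar beside them is the mean with SD. Dusp6 in the 5 N1N2 libraries sits between 46.4 and 112 CPM, below the 6 controls (134 to 226), and 1 N1 library is the lowest of its genotype in all 10 panels.

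Dusp6, the cytoplasmic phosphatase that removes the activating phosphates from ERK, was the only feedback gene to change, and it did so when both receptors were lost. Its level was 93.8, 67.8, 112, 46.4 and 83.8 CPM in the 5 Notch1-/-Notch2-/- libraries, against 134 at the lowest, 152 at the median and 226 at the highest among the 6 controls. All 5 double mutant libraries lay below every control. The mean was 80.7 ± 25.0 CPM (SD, n = 5) against 165 ± 33.8 (n = 6), or 0.488 of the control level. The log2 fold change was -1.03 ± 0.27 (SE, 95% interval -1.59 to -0.48) with a Benjamini-Hochberg adjusted p of 0.00466 in the quasi-likelihood test of edgeR. The background in this comparison was high. Among all tested genes 37.1% passed in either direction and 18.8% were lower, and 11.1% had lower levels with ranges that did not overlap. A single call among 10 genes was therefore no more than the share over all genes. In these bulk samples a smaller share of the cells that make a transcript and less of it per cell cannot be told apart.

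Dusp6 in the other genotypes overlapped the controls. In Notch2-/- it was 228, 253, 195, 154 and 160.3 CPM, and in Rbpj-/- it was 189.6, 151, 146 and 105 CPM. In Notch1-/- the lowest library had 56.2, the median was 179 and the highest had 246 CPM. The log2 differences from control were 0.26 ± 0.26 for Notch2-/-, -0.16 ± 0.28 for Rbpj-/- and 0.03 ± 0.25 for Notch1-/-, with adjusted p of 0.634, 0.725 and 0.936 (edgeR, Benjamini-Hochberg). Tested over the 5 genotypes at once, Dusp6 differed (adjusted p = 0.0113), where 29.3% of genes did. Rbpj-/- libraries stood above Notch1-/-Notch2-/- libraries by 0.87 ± 0.29, with ranges that overlapped and an unadjusted p of 0.00600, but this did not pass after adjustment over all genes (adjusted p = 0.207, edgeR), where 0.794% of genes passed. Hence a difference in Dusp6 between loss of both receptors and loss of Rbpj was not established, with an interval of 0.27 to 1.47 before adjustment.

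The call on Dusp6 held when any single library was left out, with log2 fold changes of -1.18 to -0.89 and adjusted p of 0.000549 to 0.0183. Fitted with a covariate for microglia and macrophage markers, the estimate was -2.03 ± 0.48 (SE) and the adjusted p 0.0380 (edgeR), where the SE without a covariate was 0.27. With the mature oligodendrocyte score as a covariate, chosen after seeing the data, the estimate was -1.43 and the call was lost (adjusted p = 0.0748, edgeR). Neither the summed microglia and macrophage markers nor the summed mature oligodendrocyte markers overlap between these genotypes. Each score and the genotype therefore cannot be told apart between them. The summed astrocyte markers did not overlap between these genotypes either, and no astrocyte covariate was fitted. The lowest Dusp6 values within the double mutants, 67.8 and 46.4 CPM in replicates 2 and 4, were in the libraries with the lowest summed precursor markers of the series, 9563 and 8033 CPM, against 12546 to 16938 in controls and 14801 to 16701 in the other double mutant libraries. The other 3 double mutant libraries, at 83.8 to 112 CPM of Dusp6, still lay below all controls. The part of precursor content in the result was not tested.

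**Figure D2:**
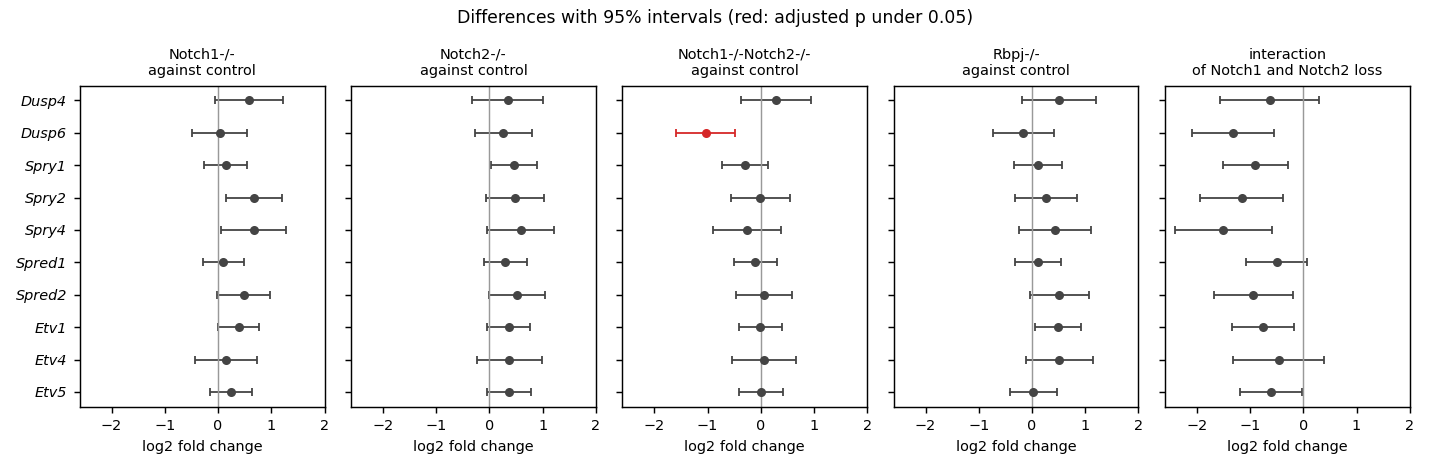
Log2 fold change of each feedback gene with its 95% interval from the fit of 26 libraries, for 4 genotypes against control and for the interaction of the receptor losses; red marks an adjusted p under 0.05. Dusp6 in Notch1-/-Notch2-/- (-1.03) is the only red point, and the interaction values all lie below 0, from -1.50 to -0.46.

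Dusp4, the nuclear counterpart that dephosphorylates ERK and other MAP kinases, was scarce and did not follow Dusp6. In control libraries it was 3.08 at the lowest, 4.44 at the median and 8.16 CPM at the highest. In Notch1-/-Notch2-/- it was 6.59, 6.52, 8.05, 5.38 and 4.31 CPM, within the control range, with a log2 difference of 0.29 ± 0.32 (adjusted p = 0.500, edgeR). Means in the remaining genotypes were 7.56 ± 3.26 CPM (SD, n = 6) in Notch1-/-, 6.40 ± 1.17 (n = 5) in Notch2-/- and 7.21 ± 2.60 (n = 4) in Rbpj-/-. None of the differences from control passed, and all were positive, from 0.29 to 0.58.

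The sprouty genes encode adaptors that block the pathway between the receptor and RAF. Spry2 in Notch1-/- libraries was 47.1 CPM at the lowest, 188 at the median and 257 at the highest, against 85.6, 104 and 143 in controls. In that genotype 5 of 6 libraries were above every control and 1 was below every control. The log2 fold change of Spry2 was 0.67 ± 0.26 with an adjusted p of 0.0545 (edgeR), just outside the threshold of 0.05, in a comparison where 26.7% of genes passed. Spry4 in Notch1-/- was 86.7 at the lowest, 353 at the median and 383 CPM at the highest, against 124, 188 and 260.4 in controls. Its log2 difference was 0.67 ± 0.30 (adjusted p = 0.0925, edgeR), with 4 of 6 libraries above every control and 1 below every control. Spry1 was nearer to control in Notch1-/-, at 58.0, 141 and 157 CPM against 91.3, 119.6 and 138 (log2 difference 0.14 ± 0.20).

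With Notch2 loss alone all 3 sprouty genes had higher means than control, without a call. Spry1 was 197, 176, 143, 128 and 154 CPM in the Notch2-/- libraries, so that 4 of 5 exceeded the highest control. Its log2 difference of 0.46 ± 0.21 had an unadjusted p of 0.0368 and an adjusted p of 0.315 (edgeR). Spry2 was 176, 187, 139.7, 116 and 154 CPM (0.48 ± 0.27, adjusted p = 0.394, edgeR) and Spry4 was 267, 356, 242, 267 and 256 CPM (0.58 ± 0.31, adjusted p = 0.376, edgeR). In the Notch2-/- comparison only 0.295% of all genes passed.

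With both receptors lost the sprouty genes were not above control. Spry4 was 234, 107, 218, 62.7 and 156 CPM in the double mutants, Spry1 was 120.4, 91.8, 117, 61.0 and 81.5, and Spry2 was 146, 106, 125, 70.9 and 102. Replicate 4 was the lowest library for each of these 3 genes. The log2 differences from control were -0.25 ± 0.31, -0.30 ± 0.21 and -0.01 ± 0.27, with adjusted p of 0.546, 0.264 and 0.984 (edgeR). In Rbpj-/- the values were 257, 313, 247 and 180.4 CPM for Spry4, 159, 138, 112 and 92.5 for Spry1, and 169.8, 156, 104 and 98.8 for Spry2. They overlapped the controls in each case, with log2 differences of 0.43 ± 0.33, 0.11 ± 0.22 and 0.26 ± 0.28.

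The SPRED proteins bring neurofibromin, which inactivates RAS, to the membrane. Spred1 was the most abundant feedback gene in CPM. Its mean was 347 ± 90.4 CPM (SD, n = 6) in control, 372 ± 62.5 (n = 6) in Notch1-/-, 427 ± 107 (n = 5) in Notch2-/-, 323 ± 58.2 (n = 5) in Notch1-/-Notch2-/- and 374 ± 83.0 (n = 4) in Rbpj-/-. The test over all 5 genotypes gave an adjusted p of 0.475 (edgeR). Spred2 was 24.0, 36.1 and 55.5 CPM at the lowest, median and highest of the controls. It was 19.1, 51.9 and 82.2 in Notch1-/-, and 55.8, 64.6, 41.6, 47.2 and 57.7 in Notch2-/-. Rbpj-/- libraries had 61.8, 64.8, 37.6 and 48.1 CPM, all above the control median. The double mutants had 42.6, 42.4, 42.9, 30.8 and 35.1 CPM, in the middle of the controls. Log2 differences of Spred2 from control were 0.48 ± 0.24, 0.52 ± 0.25, 0.51 ± 0.27 and 0.05 ± 0.25 for Notch1-/-, Notch2-/-, Rbpj-/- and Notch1-/-Notch2-/-, and none passed (adjusted p of 0.139, 0.343, 0.200 and 0.884, edgeR).

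Etv1, Etv4 and Etv5 form the PEA3 family of ETS transcription factors, whose genes are classical targets of capicua. Etv1 in Rbpj-/- was 111, 169, 185 and 196 CPM, against 79.1 at the lowest, 115 at the median and 156 at the highest of the controls. So 3 of 4 libraries exceeded every control, with a log2 difference of 0.48 ± 0.21, an unadjusted p of 0.0296 and an adjusted p of 0.114 (edgeR), in a comparison where 15.2% of genes passed. Etv4 in Rbpj-/- was 267, 242, 139 and 121 CPM, 2 libraries above the highest control of 179 and 2 inside its range (0.51 ± 0.31, adjusted p = 0.262, edgeR). Etv5 in Rbpj-/- was 192, 136, 102 and 106 CPM, on both sides of the control median of 127, with a log2 difference of 0.03 ± 0.21. These 3 genes had different libraries at the top in Rbpj-/-, since replicate 1 was highest for Etv4 and Etv5 and lowest for Etv1.

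In the double mutants the 3 ETS genes were close to control. The means were 118 ± 13.4 CPM (SD, n = 5) for Etv1, 140.2 ± 60.3 for Etv4 and 132 ± 27.99 for Etv5, against 118 ± 26.5, 134 ± 25.9 and 132 ± 23.9 in 6 controls. The log2 differences were -0.01 ± 0.20, 0.06 ± 0.29 and 0.0032 ± 0.20, so the intervals of -0.41 to 0.40 for Etv1 and -0.41 to 0.42 for Etv5 bound any change at about that size. Dusp6 in the same libraries was 0.488 of control, as given above. In Notch2-/- the Etv5 libraries lay between 155 and 190.1 CPM, against a control range of 105 to 163, so that the ranges overlapped at their ends, with a log2 difference of 0.37 ± 0.20 (adjusted p = 0.387, edgeR). In Notch1-/- Etv1 was 87.3 at the lowest, 165 at the median and 177 CPM at the highest (0.39 ± 0.19, adjusted p = 0.124, edgeR).

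Across the 10 genes the estimates were mostly above 0 in the single mutants. The median log2 difference of the feedback genes was 0.31 in Notch1-/-, 0.37 in Notch2-/- and 0.34 in Rbpj-/-, where the median of all tested genes was 0.03, 0.01 and 0.07. It was -0.01 in Notch1-/-Notch2-/-, where that of all genes was 0.01. Positive estimates numbered 10, 10, 9 and 4 of 10 in these comparisons, which share the same 6 control libraries. Under DESeq2 size factors Etv5 turned to slightly below 0 in Rbpj-/- and in Notch1-/-Notch2-/-, at -0.0057 and -0.0049. Between single receptor losses, where 3.09% of genes passed, no feedback gene did, and the estimates ran from -0.32 (Spry1) to 0.24 (Dusp4).

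Whether loss of both receptors equals the sum of the single losses was tested as an interaction, the double mutant difference from control minus the differences of each single mutant. All 10 feedback genes had negative values, from -1.50 ± 0.44 for Spry4 and -1.33 ± 0.37 for Dusp6 to -0.46 ± 0.41 for Etv4. The median was -0.83, against -0.04 for all genes. No feedback gene passed after adjustment over all genes, where 0.0768% of genes did by edgeR, while 7 of the 10 had an unadjusted p under 0.05. DESeq2's test also gave 0 feedback genes. The smallest adjusted p values by edgeR were 0.206 for Spry4 and for Dusp6. The estimates come from the same libraries and are correlated, so their common sign is not 10 observations.

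One library weighed on the Notch1-/- results. Replicate 2 was the lowest of the 6 Notch1-/- libraries for all 10 feedback genes, with a median deviation of -1.38 from the genotype mean on the log2 scale, and from -1.89 to -0.32 over the genes. In every other library this median lay between -0.55 and 0.41. Its summed mature oligodendrocyte markers were 16050.2 CPM, against 1651 to 4487 in the other 5 libraries of the genotype, and within the control range. Its TMM factor of 0.877 was the lowest of the series, and its Pdgfra level of 1998 CPM was the lowest of its genotype. Its summed precursor markers, 16572.5 CPM, were within the range of the others, 13204 to 18420. The part of these features in its low feedback genes was not tested.

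**Figure D3:**
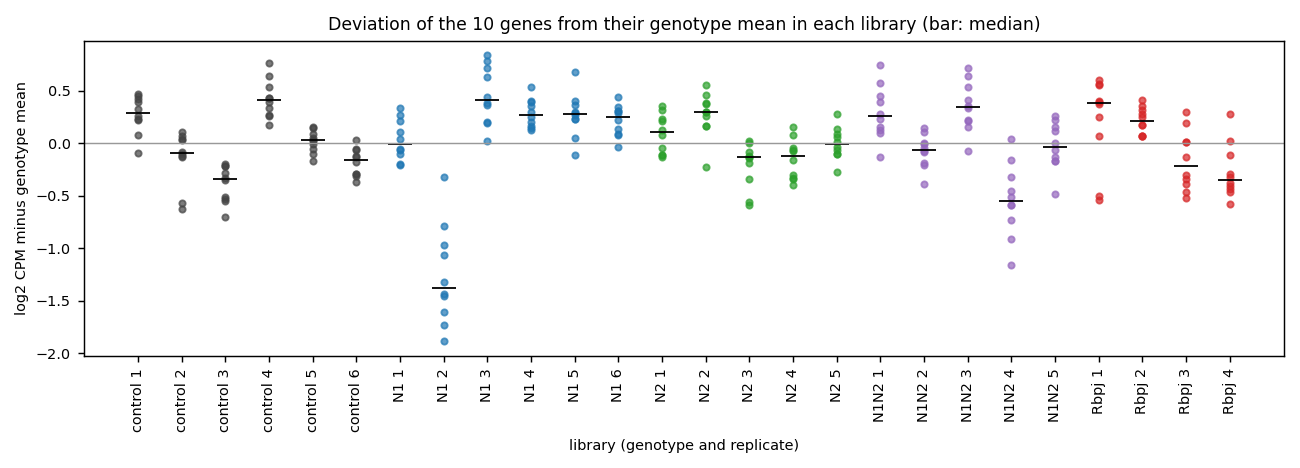
Deviation of the log2 CPM of the 10 feedback genes from their genotype mean, for each of the 26 libraries; each point is a gene and the bar is the median. Notch1-/- replicate 2 has a median of -1.38, and the next lowest library, Notch1-/-Notch2-/- replicate 4, has -0.55.

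Without this library, 5 feedback genes passed as higher in Notch1-/- than in control by edgeR with Benjamini-Hochberg adjustment, in a fit where 15.8% of all genes passed as higher. They were Spry2 (0.88 ± 0.18, adjusted p = 0.00116), Spry4 (0.87 ± 0.25, adjusted p = 0.0115), Dusp4 (0.80 ± 0.24, adjusted p = 0.0141), Spred2 (0.67 ± 0.20, adjusted p = 0.0153) and Etv1 (0.52 ± 0.18, adjusted p = 0.0280). The others remained outside the threshold, and Dusp6 was 0.23 ± 0.20 (adjusted p = 0.378, edgeR). Spry2 alone also passed without control replicate 4 (adjusted p = 0.0355) and without Rbpj-/- replicate 1 (adjusted p = 0.0489), both by edgeR, and by DESeq2's test on all libraries (0.65, adjusted p = 0.0382). With the mature oligodendrocyte score as a covariate in all 26 libraries, the Notch1-/- estimate of Spry2 was 0.05 and that of Spry4 was 0.33, and neither passed. With a covariate for microglia and macrophage markers both estimates turned negative, at -0.28 ± 0.50 for Spry2 and -0.25 ± 0.57 for Spry4 (adjusted p of 0.845 and 0.882, edgeR).

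The interaction moved in the same way. Without Notch1-/- replicate 2, 4 feedback genes passed as lower in the double mutant than the sum of the single losses, by edgeR, where 0.616% of all genes passed as lower. They were Dusp6 (-1.50 ± 0.29, adjusted p = 0.0138), Spry2 (-1.35 ± 0.26, adjusted p = 0.0142), Spry4 (-1.69 ± 0.36, adjusted p = 0.0232) and Spry1 (-1.04 ± 0.24, adjusted p = 0.0291). The count of all genes that passed the interaction rose from 12 to 227 without it. Over the 5 genotypes at once, 6 feedback genes passed in place of 1, where 34.6% of all genes did. All of these values depend on leaving out a library that was singled out after its values were seen.

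The feedback genes varied together among libraries of the same genotype. Pearson's r was computed for the 45 pairs on log2 CPM after subtracting genotype means, with 26 libraries and a permutation test of 100000 resamples within genotypes. All 45 values were positive, with a median of 0.78, and 34 had an adjusted p under 0.05. For comparison, the median r of a feedback gene with all tested genes was 0.03, a signed value in which opposite relations cancel. The share of tested genes with a lower r to the first gene of a pair varied widely. It was 99.9% for Dusp6 with Spry2 and 65.0% for Etv1 with Etv4. Spry1 and Spry2 were the closest pair (r = 0.93, rho = 0.87, p = 1e-05 for both by permutation, the smallest the resamples can give, adjusted p of 5e-05 and 0.000113). The r of this pair was 0.86 without the 2 libraries farthest from the median of Spry1. Dusp6 followed Spry2 (r = 0.89, rho = 0.77, permutation p = 3e-05 and 0.00011, adjusted 7.5e-05 and 0.000275, and r = 0.74 without the 2 farthest libraries). Dusp6 also followed Spry1 (r = 0.89) and Etv5 (r = 0.88).

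Etv1 and Spred1 were each closer to the other than to any other feedback gene. Their r was 0.79 (rho = 0.66, permutation p = 3e-05 and 0.00125, adjusted 7.5e-05 and 0.00216, and 0.69 without the 2 farthest libraries). Spred1 also followed Spry4 (r = 0.62, rho = 0.67, adjusted p of 0.000166 and 0.000403 by permutation) and, by r only, Dusp6 (0.41, adjusted p = 0.0299). Etv1 also followed Spred2 (0.60, adjusted p = 0.0154) and Spry4 (0.51, adjusted p = 0.0198) by r, but not by rank. Etv1 had no clear relation to the other members of its own family, with r of 0.21 to Etv4 (permutation p = 0.321) and 0.35 to Etv5 (p = 0.129), whereas Etv4 and Etv5 had r of 0.89. Spred1 and Spred2 had r of 0.46 (adjusted p = 0.0240 by permutation), while Spred2 was closest to Dusp4, with r of 0.93. No batch is named in the labels, so no value within batches can be given.

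These correlations rest in part on Notch1-/- replicate 2. Without it the median r over the 45 pairs was 0.60 and 42 were positive. Spry1 and Spry2 were then at 0.88, Etv1 and Spred1 at 0.81, and Etv1 and Etv4 at -0.22. With the mature oligodendrocyte score removed by regression instead, the median was 0.77.

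**Figure D4:**
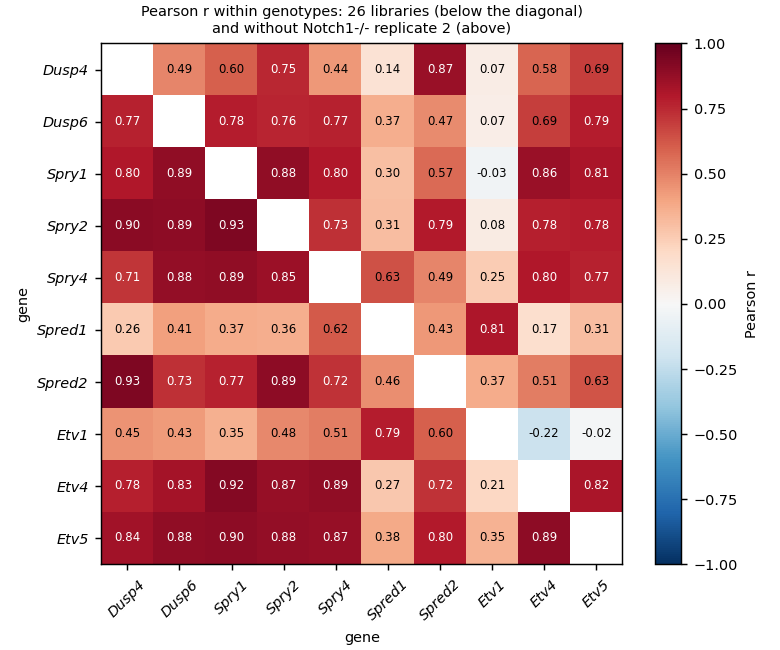
Pearson r between feedback genes over libraries after subtracting genotype means, with all 26 libraries below the diagonal and without Notch1-/- replicate 2 above it. The block of Dusp, Spry, Spred2, Etv4 and Etv5 genes is positive below and above the diagonal, and Spred1 and Etv1 pair with each other (0.79 and 0.81).

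The receptor upstream in these tumours, Pdgfra, was very high and did not pass against control in any genotype. Its mean ran from 3582 ± 1388 CPM (SD, n = 5) in Notch1-/-Notch2-/- to 5883 ± 1094 (n = 5) in Notch2-/-, with 4511 ± 1130 (n = 6) in control, and the log2 difference in the double mutants was -0.33 ± 0.27 (adjusted p = 0.352, edgeR). Within genotypes, some feedback genes followed it. Of 90 relations of the 10 genes to receptors and to cell type scores, 5 had an adjusted p under 0.05. How many of all tested genes followed Pdgfra as closely was not computed, so these relations are not shown to be particular to feedback genes. For Spred1, the r of 0.79 with Etv1 was above that of 94.9% of tested genes. Spred1 (r = 0.83, rho = 0.86, permutation p = 1e-05 for both, adjusted 0.000900 for both) and Spry4 (r = 0.84, rho = 0.78, permutation p = 7e-05 and 8e-05, adjusted 0.00315 and 0.00360) were the closest to Pdgfra. Their r was 0.85 and 0.70 without the 2 farthest libraries, and 0.85 and 0.78 without Notch1-/- replicate 2. Etv1 also followed Pdgfra by r (0.66, adjusted p = 0.0225 by permutation) and not by rank (0.52, adjusted p = 0.122).

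Dusp6 had a weaker relation to Pdgfra that did not pass (r = 0.63, rho = 0.53, adjusted p of 0.0820 and 0.122 by permutation), and r was 0.30 without the 2 farthest libraries. Some libraries had similar Pdgfra but different Dusp6, which was not tested. Replicates 1 and 3 of Notch1-/-Notch2-/- had 4629 and 5049 CPM of Pdgfra with 93.8 and 112 CPM of Dusp6, and control replicates 2 and 5 had 4267 and 4763 CPM of Pdgfra with 149 and 145 CPM of Dusp6. The remaining 2 relations that passed were Spred1 with the precursor score (r = 0.53, adjusted p = 0.0443 by permutation), which contains Pdgfra, and Spred2 with the mature oligodendrocyte score (r = -0.62, adjusted p = 0.0225 by permutation). The latter did not pass by rank (rho = -0.56, adjusted p = 0.0839 by permutation), and r was -0.50 without the 2 farthest libraries and -0.45 without Notch1-/- replicate 2.

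**Figure D5:**
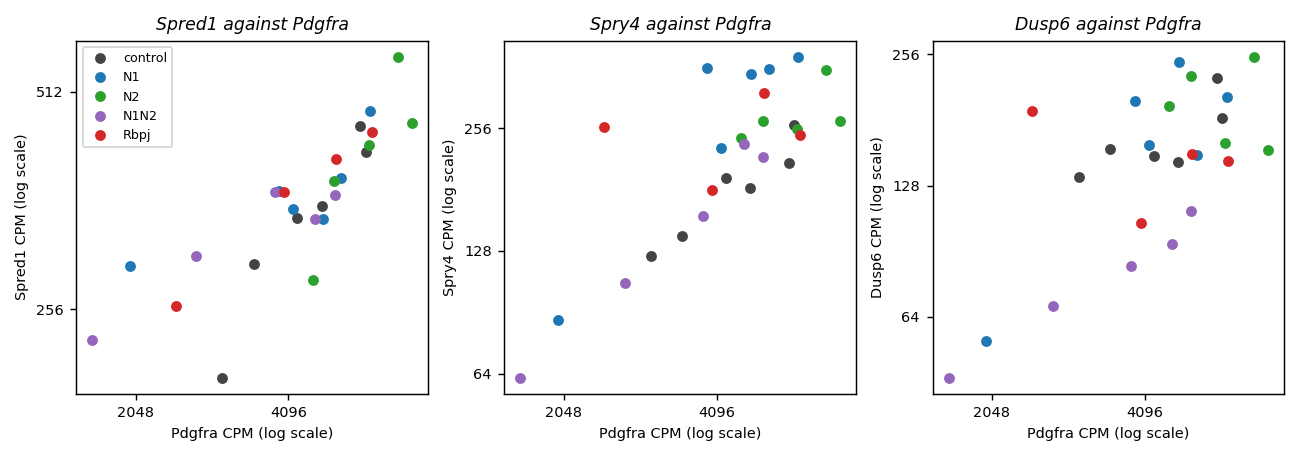
Level of Spred1, Spry4 and Dusp6 against that of Pdgfra, in CPM on log axes, with a point for each of 26 libraries coloured by genotype (N1, Notch1-/-; N2, Notch2-/-; N1N2, Notch1-/-Notch2-/-; Rbpj, Rbpj-/-). Spred1 and Spry4 follow Pdgfra (r within genotypes of 0.83 and 0.84), and the Dusp6 points of N1N2 lie below every control point, with 1 N1 point (56.2 CPM) and 1 Rbpj point (105 CPM) also low.

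Over all 26 libraries, without removing genotype, the 3 genes whose log2 CPM was most like that of each feedback gene were not feedback genes themselves, except for Spred2 beside Dusp4. Dusp6 was most like Inka2 (r = 0.94), Serpine2 (0.93), a secreted protease inhibitor, and Pea15a (0.93), which encodes a protein that binds ERK and holds it in the cytoplasm. Spry1 was most like Ckmt1 (0.92), Ddah1 (0.91) and Rasa3 (0.91), a RAS GTPase-activating protein. Spry2 was most like Plk2 (0.94), Gsx1 (0.91) and Cdkn2b (0.90), an inhibitor of the cell cycle. Spry4 was most like Tacc2 (0.95), Hip1 (0.93) and Rasa3 (0.91).

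Spred1 was most like B4galt6 (0.97), Itgav (0.93), an integrin subunit, and Rgs7bp (0.92), and Spred2 most like Akap12 (0.94), Sh3pxd2a (0.92) and Trim9 (0.92). Dusp4 was most like Bmp7 (0.91), Spred2 (0.90) and Sh3pxd2a (0.90). Etv4 was most like Mmp15 (0.93), Marveld1 (0.91) and Sorcs2 (0.90), Etv5 most like Tacc2 (0.90), Mmp15 (0.88) and Slc1a4 (0.87), and Etv1 most like Mmp16 (0.90), Fip1l1 (0.90) and Desi2 (0.86). Rasa3, Tacc2, Mmp15 and Sh3pxd2a each appeared for 2 feedback genes. These r values are a description over libraries that share genotype.

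Other genes of the pathway were compared list by list with the share of genes that passed overall. The share of all genes that passed in either direction was 15.2% in Rbpj-/-, 37.1% in Notch1-/-Notch2-/- and 26.7% in Notch1-/-, and the counts on each list are set beside it. Of 22 further genes listed as ERK output, 7 rose and 0 fell in Rbpj-/- and 6 rose and 1 fell in Notch1-/-Notch2-/-. In Notch1-/- 5 rose and 0 fell, and none passed in Notch2-/-, by edgeR with Benjamini-Hochberg adjustment over all genes. The list includes the transcription factor genes Elk1 and Elk3, and Elk1 was among the rises in the first 3 genotypes. Whether ERK raises the transcripts of these 2 genes was not tested. Passing genes were thus 7, 7 and 5 of 22, above that share in Rbpj-/- and below it in the other 2. That share counts both directions, while nearly all of these calls were rises, so it is not a measure for the rises alone. In Notch1-/-Notch2-/- 37.1% of all genes passed and 18.8% passed as lower, so the share that rose was below 37.1%. The 6 of 22 that rose there are therefore not shown to be below the share of rises. The median log2 difference of the list was 0.53, 0.39, 0.47 and 0.26 in Rbpj-/-, Notch1-/-Notch2-/-, Notch1-/- and Notch2-/-. The median of all tested genes was 0.07, 0.01, 0.03 and 0.01. The growth regulator Myc rose in each of the first 3 (1.51 ± 0.23, 1.77 ± 0.22 and 1.29 ± 0.21, adjusted p of 0.000505, 8.65e-06 and 0.000291), as did the AP-1 gene Fos (1.44 ± 0.36, 2.15 ± 0.35 and 1.09 ± 0.33). Dusp6 fell in the double mutants in which Fos and Myc rose.

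Of 20 RAS to ERK core genes 2, 3 and 3 passed in Rbpj-/-, the double mutants and Notch1-/-, fewer than the share over all genes. The adaptor Gab2 rose by 0.47 ± 0.16 in Rbpj-/-, 0.59 ± 0.15 in the double mutants and 0.47 ± 0.15 in Notch1-/-, and Map2k1, which encodes MEK1, fell in each (-0.39 ± 0.13, -0.50 ± 0.12 and -0.45 ± 0.12). The adaptor Frs2 rose in the last 2, and no other core gene passed. Of 21 other negative regulators 1, 4 and 2 passed, again fewer than that share, and Dusp10 alone fell in Rbpj-/- and Spred3 and Lztr1 rose in Notch1-/-. In the double mutants the immediate early phosphatase Dusp1 rose (0.83 ± 0.27), while Dusp7 (-0.67 ± 0.26), Errfi1 (-0.68 ± 0.27) and Lrig1 (-0.49 ± 0.17), inhibitors of ERK or of receptors, fell. The capicua gene Cic rose by 0.81 ± 0.22, 0.82 ± 0.21 and 0.83 ± 0.20 in Rbpj-/-, Notch1-/-Notch2-/- and Notch1-/-, and its partners Atxn1 and Atxn1l did not pass.

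Of 20 receptor tyrosine kinases, 4, 5 and 4 fell in Rbpj-/-, Notch1-/-Notch2-/- and Notch1-/-, and 1 rose in Notch1-/-. Taken in either direction, this was above the share over all genes in Rbpj-/- and below it in the other 2. In the double mutants 18.8% of all genes passed as lower, and the 5 of 20 that fell were above that share. The receptors that fell in all 3 genotypes were Fgfr2 and the endothelial receptors Tek, Flt1 and Kdr, which are also markers of endothelial cells. The summed endothelial markers were 42.1 to 183 CPM in controls and 6.84 to 28.5 CPM in these 3 genotypes. Ntrk2 fell in the double mutants and Igf1r rose in Notch1-/-. Egfr was lower in Notch1-/- than in Notch2-/- (-1.40 ± 0.38, adjusted p = 0.0408, edgeR), but this call was lost with the replicate block, with only the compared libraries, with either marker score and without any of 7 single libraries (adjusted p of up to 0.113, edgeR), Notch1-/- replicate 2 among them. Of 20 growth factor genes tested, of 23 listed, 1 rose and 2 fell in Rbpj-/-, 2 rose and 4 fell in the double mutants and 1 rose and 3 fell in Notch1-/-, so that 3, 6 and 4 passed, no more than the share over all genes. Nrg3 was lower in all 3.

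The calls on these pathway genes depended on single libraries more often than not in Rbpj-/-. Those kept whichever single library was left out were 3 of 18 in Rbpj-/- (Fgf1, Myc and Tek), 20 of 26 in Notch1-/-Notch2-/- and 10 of 20 in Notch1-/-. In Rbpj-/- 9 of the 18 were kept with the replicate block and 10 with only the compared libraries, and Gab2, Map2k1, Cic and Kdr were lost under both. Without Rbpj-/- replicate 1 all 4 were lost too, with adjusted p of up to 0.140, 0.136, 0.0782 and 0.0884 (edgeR) over the libraries left out. Among calls named above, Dusp1, Dusp7, Errfi1 and Lrig1 in the double mutants, and Fos, Gab2, Frs2, Fgfr2, Igf1r, Spred3 and Lztr1 in Notch1-/-, were also lost without at least 1 library. They moved with the makeup of the samples as well. Of 18 calls in Rbpj-/-, 26 in Notch1-/-Notch2-/- and 20 in Notch1-/-, 0, 1 and 0 were kept with a covariate for microglia and macrophage markers, and 0, 0 and 2 with the mature oligodendrocyte score. Both scores follow genotype, so their parts cannot be told apart. Dusp6 kept its call in the double mutants under the first and not under the second.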

How the data were processed

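RNA of sorted GFP-positive glioma cells was made into strand-specific libraries (TruSeq Stranded RNA LT) and sequenced on an Illumina NextSeq, per the labels' protocols. The submitters' processing notes name the aligner STAR and the build mm10. How reads were assigned to genes, and whether by strand, is not given in the sources used here, and counts of overlapping genes are uncertain. The deposited table holds whole-number counts per Entrez gene, with a gene length as its other column, which is used here only for levels per kilobase. Libraries were grouped by their titles. Symbols came from RefSeq (GRCm38.p6), which matched 24374 of 24454 genes, and the 80 others hold 0.348% of counts.

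Counts of 26 libraries, 30868828 to 48103535 each, were filtered with filterByExpr, scaled by TMM and fitted by genotype in edgeR 4.0.16 (R 4.3.3). Quasi-likelihood tests covered 7 contrasts and any difference, with Benjamini-Hochberg adjustment over 15617 genes at 0.05. Log2 CPM used a prior count of 2. The common biological coefficient of variation was 0.368. On simulated counts for Notch1-/-Notch2-/- against control (15500 genes), 20% of 1.5-fold, 62% of 2-fold, 82% of 4-fold and 96% of 8-fold changes were recovered. Only 50 genes were changed at each size and 134 were called, against 5794 in the data. Adjustment was therefore stricter in the simulation than in that comparison. Alternatives were DESeq2 1.42.0 (size factors and test), other filters, a replicate block, only the compared libraries, a microglia and macrophage score, omission of 3 libraries with both Xist and Ddx3y above 10 CPM, omission of each library, and, added after seeing the data, a mature oligodendrocyte score. Correlations used Python 3.11.15 with numpy 2.4.6.

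The 10 genes and all lists were chosen with earlier results of these data known. Named genes were the 10, the targeted genes, up to 4 passing genes per list and comparison with the smallest adjusted p, defining markers, and the 3 genes most like each of the 10. Ntrk2, Fgfr2 in Notch1-/-, and the other libraries and genes named beyond this rule were chosen after their values were seen. No 2 libraries of a genotype agreed within sampling noise (lowest chi-square per gene 42.3 over 56 pairs). Protein sequences were not used here.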

Additional observations from a re-analysis of the deposited data

Results flagged for a closer look

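In 2 of 50 sets of libraries (10 genes in 5 genotypes), 1 library stood apart from the rest of its genotype by Dixon's test, and chance gives about 1 in 20. Spry4 was 356 CPM in Notch2-/- replicate 2, where the other 4 libraries lay between 242 and 267 CPM. The gap was 0.780 of the range, against a critical value of 0.710. That library was also the highest of its genotype for 7 of the 10 feedback genes and had the lowest summed mature oligodendrocyte markers of its genotype, 1700.4 CPM. Etv1 was 87.3 CPM in Notch1-/- replicate 2, where the other 5 lay between 162 and 177 CPM, a gap of 0.834 of the range against 0.625. This is the library that was lowest for all 10 genes. No feedback gene passed the interaction test of the receptor losses with all libraries.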

How the results depend on the processing

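Of 702 values of the feedback genes under settings other than leaving out a library, 631 kept their direction and side of the threshold, 67 changed sign while passing in neither fit (51 of them with a marker score as covariate), 3 newly passed and 1 was lost. The count of feedback genes called became 0 in Notch1-/-Notch2-/- with the mature oligodendrocyte score, 1 in Notch1-/- and 3 over the 5 genotypes with DESeq2, where Spry1 (adjusted p = 0.0472) and Spry4 (0.0443) joined Dusp6. Of 2080 values with a library left out, 16 newly passed, 47 changed sign uncalled and 0 were lost, and counts of called feedback genes ran from 0 to 5 in Notch1-/-, 0 to 4 for the interaction and 1 to 6 over all genotypes, each highest without Notch1-/- replicate 2. Replicate numbers did not pair libraries (correlation of deviations -0.417 to 0.627, median -0.0444, 47 pairs). With the replicate block no call on a feedback gene changed, and genes called were 1304 (Rbpj-/-), 25 (Notch2-/-), 50 (Rbpj-/- against double), 300 (Notch1-/- against Notch2-/-) and 6 (interaction). In the order Rbpj-/-, Notch1-/-Notch2-/-, Notch1-/-, Notch2-/-, Rbpj-/- against double, Notch1-/- against Notch2-/-, interaction and any difference, all genes called numbered 2378, 5794, 4174, 46, 124, 482, 12 and 4581, with ranges without 1 library of 1132 to 3292, 4639 to 6416, 2815 to 5290, 21 to 170, 21 to 160, 275 to 841, 5 to 227 and 3626 to 5657. Counts that moved by over 1.5 times were, in that order, 6, 185, 7, 16, 317 (Notch1-/- against Notch2-/-), 6 and 480 with the microglia score, and 25, 235, 220, 19, 37 (interaction) and 601 with the mature oligodendrocyte score. The stricter filter gave 1533 (Rbpj-/-), 16 (Notch2-/-), 73 (Rbpj-/- against double) and 193 (Notch1-/- against Notch2-/-), and no filter 81 (Rbpj-/- against double). Only the compared libraries gave 1222, 182, 31 and 294 for the same 4. DESeq2 gave 344 (Notch2-/-), 317 (Rbpj-/- against double), 1099 (Notch1-/- against Notch2-/-) and 124 (interaction). Without the 3 libraries with both Xist and Ddx3y there were 1492, 12, 76, 142 and 5 (interaction). Reversed were Ccnd1 in Notch1-/- with the microglia score (-0.13) and, in the double mutants with the mature oligodendrocyte score, Fgfr2 (0.33), Dusp7 (0.42), Lrig1 (0.12) and Ets2 (-0.048). The causes were not tested. In simulation 1.5-fold changes were mostly undetected, but few genes were changed there, so recovery in the double mutant comparison may differ.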
